A study of Mus musculus with 9 samples.

Results

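Expression was compared between cells of NIH 3T3, a long-established mouse embryonic fibroblast line, that carried a short hairpin RNA (shRNA) against Ube2m and the same cells carrying an shRNA against Ube2f. The comparison held the 3 arrays titled Ube2m shRNA and the 3 titled Ube2f shRNA, 6 of the 9 arrays in the series, and the other 3, titled control shRNA, were used for reference. All cells were transduced with a retroviral shRNA vector, harvested 5 days later and, per the growth label shared by all groups, expressed Ube2f. Each group held 3 biological replicates, and the labels name no clone, selection or hairpin sequence.

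UBE2M and UBE2F are the E2 enzymes of the NEDD8 pathway. NEDD8 is a ubiquitin-like protein that is attached to cullins, the scaffolds of the cullin-RING ubiquitin ligases, and this step switches the ligases on. UBE2M works with the RING protein RBX1 on cullins 1 to 4, whose adaptors include the F-box proteins, KEAP1 and the DDB1-bound receptors. UBE2F works with RBX2 (gene Rnf7) on cullin 5, whose adaptors are SOCS-box proteins such as the feedback inhibitors of cytokine receptors. Going by the series title, the study asked how E2 and RING partners make cullin modification specific, and the comparison here asks which transcripts separated the 2 knockdowns.

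The arrays gave a linear signal per probe set, on which every array had the same trimmed mean of 500. Replicate 3 stood apart in all groups, with a median signal of 64 to 73.5, against 53.3 to 58.5 on the other arrays. The ratio of 3' to 5' actin probes, a sign of RNA integrity, was 1.28 to 1.32 with Ube2m shRNA and 1.24 to 1.35 with Ube2f shRNA, and the groups overlapped. Collagen and vimentin, on the list of fibroblast markers, were abundant on all 6 arrays (Col1a1 15097 to 17839, Vim 28662 to 40491). The leukocyte marker Ptprc (2.6 to 36.3) and the endothelial marker Pecam1 (1.5 to 30) stayed below 53.8, the mean signal a gene needed to be tested. Of 12 macrophage markers, 4 did reach that level: Cd14 (296.7 to 553.6), Lyz1 (139 to 383.6), Csf1r (99.3 to 239.3) and Lyz2 (135.5 to 214.4). Lum, on the fibroblast list, did not (3.8 to 39.3). The epithelial keratin Krt14 was high, at 5978, 6095 and 5295 with Ube2m shRNA and 2940, 3735 and 2273 with Ube2f shRNA (log2 difference 0.98, adjusted p = 0.00599). With it, the summed signal of 10 epithelial markers, 3 of which reached that level, was 5846 to 6602 against 2801 to 4231. Most of that sum was Krt14, and its part in the results was not tested. The other tested markers, Cdh1 and Epcam, were not called. Their means were lower with Ube2m shRNA (Cdh1 106 against 162, Epcam 141 against 168), and Epcam read 119.7 to 211 over the 6 arrays.

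Of 10613 genes tested, 1672 (15.8%) differed between the knockdowns at an adjusted p under 0.05. Of these, 676 (6.37% of the genes tested) were higher with Ube2m shRNA and 996 (9.38%) were higher with Ube2f shRNA. The difference reached 2-fold for 299 genes, 158 higher with Ube2m shRNA and 141 higher with Ube2f shRNA. It reached 4-fold for 36, of which 28 were higher with Ube2m shRNA and 8 with Ube2f shRNA. The median log2 difference over all genes, Ube2m minus Ube2f, was -0.04, and the signals of the groups did not overlap for 3647 genes (34.4%). Against the same 3 control arrays, 1031 genes (9.71%) were called with Ube2m shRNA and 551 (5.19%) with Ube2f shRNA. Single arrays moved the count of 1672: it was 1063 without Ube2m replicate 1, 1017 without Ube2m replicate 2 and 1018 without Ube2f replicate 1. Counts of list members below are read against 6.37% of all genes higher with Ube2m shRNA, 9.38% higher with Ube2f shRNA and 15.8% in either direction. Within replicates 1 and 2 the count of 1672 was 2032, and with the replicate number as a block 2493, of which 1501 were higher with Ube2f shRNA.

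**Figure D1:**
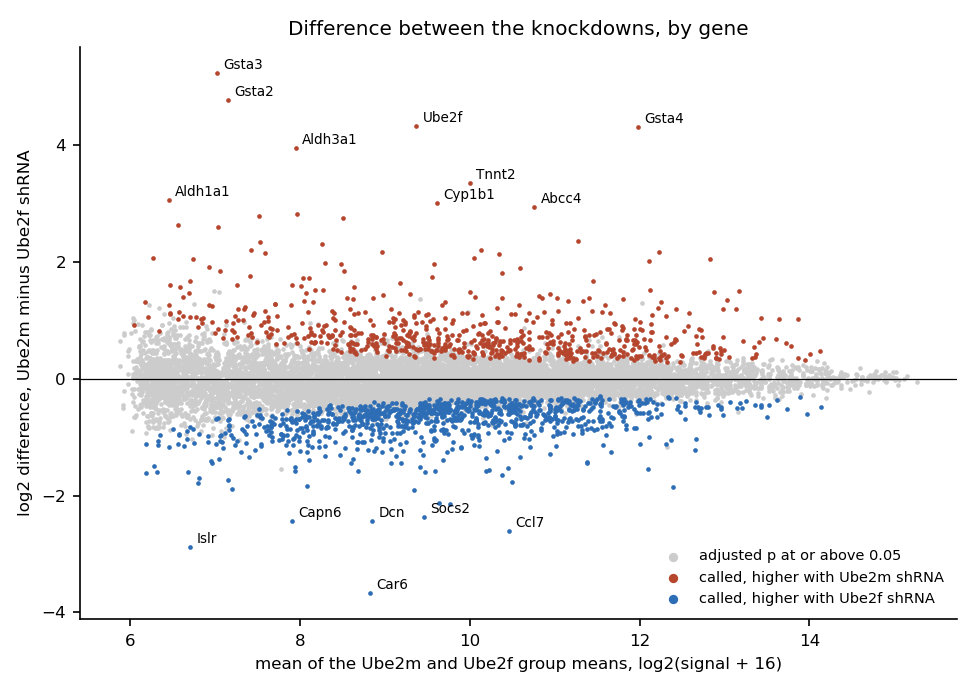
Log2 difference between the knockdowns (y axis, Ube2m minus Ube2f shRNA) against the mean of both group means on the log2(signal + 16) scale (x axis), with 1 point per gene for 10613 genes. Red and blue points are the 676 and 996 called genes, and the glutathione S-transferases Gsta3, Gsta2 and Gsta4 lie at the top with Ube2f.

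The targets were read first. Ube2f gave 3029, 3140 and 2700 with Ube2m shRNA, 134.9, 117.9 and 143.8 with Ube2f shRNA, and 2367, 2492 and 2757 with control shRNA. Its signal was therefore low on exactly the arrays titled Ube2f shRNA, with no overlap (log2 difference 4.33, SE 0.118, adjusted p = 1.96e-10). Of the 6 Ube2f probe sets, 5 were higher with Ube2m shRNA, by 1.54 to 4.33 on the log2 scale, and 1 dim probe set was not (-0.70). The name Ube2m stood on no probe set with a single assigned gene, so the reduction of Ube2m was not checked.

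Transcripts of the NEDD8 machinery hardly separated the knockdowns. Of 17 tested members of NEDD8 conjugation and removal only Ube2f was called, and the list's median difference was 0.06. Nedd8 itself read 8187, 7535 and 6424 with Ube2m shRNA and 7595, 8393 and 6522 with Ube2f shRNA (log2 difference -0.02, adjusted p = 0.93). Rnf7, the RING partner of UBE2F, had a log2 difference of -0.23 (adjusted p = 0.274), and Uba3, the catalytic subunit of the NEDD8 E1, one of -0.07 (adjusted p = 0.772). None of the 9 subunits of the COP9 signalosome, which removes NEDD8 from cullins, was called, with log2 differences of 0.17 for Cops7b (adjusted p = 0.369) and -0.21 for Gps1 (adjusted p = 0.249) as those of the smallest p. With the mean of all its probe sets Cops7b did pass by the same limma test (0.41, adjusted p = 0.0472).

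Of 8 cullins, Cul4a alone passed the test. Cul4a, a scaffold of DNA-repair and replication ligases, read 1183, 1299 and 1573 with Ube2m shRNA and 1644, 1745 and 2101 with Ube2f shRNA. The groups did not overlap, but the difference was small (log2 difference -0.44, SE 0.13, adjusted p = 0.0385) and lost the call in 6 of the 9 fits that left out 1 array, all but those without Ube2m replicate 3, control replicate 1 or control replicate 3. Cul5 had a log2 difference of 0.1 (adjusted p = 0.749) and Cul3 one of -0.08 (adjusted p = 0.679).

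Among 27 tested adaptors of cullin 5, 3 were called, all higher with Ube2f shRNA (11.1%, against 9.38% of all genes), and the list's median was -0.17. All 3 are SOCS-family genes. Socs2, a feedback inhibitor of growth hormone signalling, read 289.3, 327.7 and 271.9 with Ube2m shRNA and 1747, 1378 and 1675 with Ube2f shRNA. Control arrays lay between, at 400.4, 508.8 and 838.2, and no array of one knockdown came near the other (log2 difference -2.37, SE 0.215, adjusted p = 1.74e-05). With the mean of all its probe sets the difference was -1.38 (adjusted p = 0.0014). Cish, which encodes another STAT5-induced feedback inhibitor, read 155.2, 151.2 and 176.3 with Ube2m shRNA against 322, 394.7 and 343.9 with Ube2f shRNA, and controls read 191.3, 182.9 and 222.2. Here the arrays with Ube2f shRNA stood above the other 6 (log2 difference -1.06, SE 0.16, adjusted p = 0.000835).

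Socs4 was the opposite case, low with Ube2m shRNA (657.7, 531 and 783.3) and at 1019, 883.2 and 1172 with Ube2f shRNA beside 1152, 1133 and 1006 in controls. Its difference was smaller (log2 difference -0.64, SE 0.152, adjusted p = 0.0134) and was lost without Ube2m replicate 2 or with the mean of all its probe sets. The other tested genes of the family did not pass. Socs3 had a log2 difference of -0.27 (adjusted p = 0.113), Socs1 one of -0.48 (adjusted p = 0.275) and Socs5 one of -0.29 (adjusted p = 0.0775). Socs6 and Socs7 had 0.02 and 0.24 (adjusted p = 0.957 and 0.255).

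The RefSeq promoter table (GRCm38.p6, 250 bases before to 50 after each start site) held 2 of the 3 called SOCS-family genes, Cish and Socs4, and the STAT5-type palindrome TTCNNNGAA was searched on both strands. It was present in Cish and not in the Socs4 window, and in 691 of 8656 tested genes with a promoter (7.98%). The 30 bases of Cish around its start site, at chr9:107296654-107296683 on the plus strand, are shown because both copies lie in them, in capitals.

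Cish: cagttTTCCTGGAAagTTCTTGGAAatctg

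Among other genes of cytokine signalling, 6 of 29 were called (20.7%, against 15.8% of all genes), 2 higher with Ube2m shRNA and 4 higher with Ube2f shRNA, and the median was -0.12. Irs1, the docking protein of insulin and IGF receptors, read 1887, 2257 and 1986 with Ube2m shRNA against 4903, 4238 and 4316 with Ube2f shRNA (log2 difference -1.13, SE 0.145, adjusted p = 0.000276). Stat5a, which encodes a transcription factor that induces Socs2 and Cish, read 452.9, 419.4 and 452.6 against 613.4, 620.9 and 698.6. That difference (log2 -0.53, SE 0.14, adjusted p = 0.0224) was lost in 5 of the fits that left out 1 array and with the mean of all its probe sets (-0.32, adjusted p = 0.169). Bcl6, a transcriptional repressor, ran the other way, at 494.9, 460.8 and 538.1 with Ube2m shRNA and 266.6, 186.2 and 300.3 with Ube2f shRNA (log2 0.97, SE 0.17, adjusted p = 0.00228). The other member called higher with Ube2m shRNA was Pim1.

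Of 78 tested adaptors of cullins 1 to 4, 9 were called (11.5%, against 15.8% of all genes), 2 higher with Ube2m shRNA and 7 higher with Ube2f shRNA, and the median was -0.09. Skp2, the F-box protein that marks the CDK inhibitor p27 for destruction, read 1713, 1632 and 1555 with Ube2m shRNA and 2691, 2541 and 2749 with Ube2f shRNA, with controls at 1917, 2085 and 2071. The 3 groups did not overlap (Ube2m minus Ube2f log2 difference -0.70, SE 0.0963, adjusted p = 0.000448). Fbxo4, Klhl22 and Btrc, which encode an F-box, a kelch-repeat and the beta-TrCP adaptor, were lower with Ube2m shRNA by -1.06, -0.75 and -0.66 on the log2 scale, and Dtl, the CUL4 receptor of CDT1, was higher by 0.66. The calls of these 4 genes rested on the chosen probe set and were lost with the mean of all probe sets of a gene. The others called were Spop (0.40), Fbxw4 (-0.76), Fbxo11 (-0.49) and Fbh1 (-0.37). Keap1, the CUL3 adaptor that holds NRF2 in check, had a log2 difference of -0.04 (adjusted p = 0.89).

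Antioxidant genes under NRF2, a transcription factor that KEAP1 and CUL3 mark for degradation, were among the widest differences. Of 38 tested members 27 were higher with Ube2m shRNA (71.1%, against 6.37% of all genes), and 1 was higher with Ube2f shRNA. For 3 of the 27, Gsta2, Gsta3 and Aldh3a1, the mean signal with Ube2f shRNA lay below the level needed for testing, so these genes were tested because of their high arrays. The list's median log2 difference was 1.06, with 1.18, 1.04 and 1.11 in the 3 replicate pairs. Against control the median was 0.85 with Ube2m shRNA and -0.10 with Ube2f shRNA. In every other setting tried, 20 to 29 members were higher with Ube2m shRNA.

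Glutathione S-transferases, which conjugate glutathione to electrophiles, led the list. Gsta4 read 18859, 18721 and 16553 with Ube2m shRNA and 923.2, 945.1 and 814.4 with Ube2f shRNA, with controls at 1698, 1554 and 1763. It was high on the Ube2m shRNA arrays and slightly below control on the Ube2f shRNA arrays (log2 difference 4.31, SE 0.105, adjusted p = 9.63e-11; Ube2f minus control -0.89, adjusted p = 0.000477). Gsta3 read 730.3, 779.7 and 837.7 with Ube2m shRNA and 11.3, 1.7 and 3.4 with Ube2f shRNA (log2 difference 5.24). Gsta2 read 570.8, 729.4 and 926.4 against 5.3, 4.5 and 29.5 (log2 difference 4.78). Its probe set may share probes between transcripts, and Gsta2 had no value without such probe sets. For both, the means with Ube2f and with control shRNA lay below the level needed for testing, so the size depends on the constant added before the log, and with 64 in place of 16 it was 3.61 for Gsta3 and 3.38 for Gsta2.

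Other members of the list included Gclm, Nqo1 and Abcc4. Gclm, the modifier subunit of glutamate-cysteine ligase, read 9942, 10463 and 10322 with Ube2m shRNA and 2380, 2128 and 2289 with Ube2f shRNA, and controls at 1968, 2035 and 2584 overlapped the latter (log2 difference 2.17, SE 0.114, adjusted p = 2.62e-07). Nqo1, a quinone reductase, read 16042, 16958 and 11846 against 3783, 3978 and 3004 (log2 difference 2.05, SE 0.149, adjusted p = 3.62e-06). Abcc4, an efflux pump for conjugates, read 4453, 4545 and 5405 against 609.2, 704.9 and 530.3 (log2 difference 2.94, SE 0.127, adjusted p = 2.95e-08). For none of Gclm, Nqo1 and Abcc4 did Ube2f shRNA differ from control by the test (log2 0.05, -0.18 and -0.28, adjusted p = 0.85, 0.543 and 0.243). Hmox1 (1.81), which degrades heme, Txnrd1 (1.2), a thioredoxin reductase, and Slc7a11 (1.73), the cystine importer, were also called higher with Ube2m shRNA. Ugdh, which makes UDP-glucuronate, was the member higher with Ube2f shRNA, at 7446, 7585 and 7926 with Ube2m shRNA and 11084, 10284 and 11117 with Ube2f shRNA (log2 difference -0.50, SE 0.11, adjusted p = 0.0086).

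The letters TGACNNNGC, the core of the antioxidant response element that NRF2 binds, were searched on both strands of the same promoter windows. They were found in 1469 of 8656 tested genes with a promoter (17%), in 11 of 32 tested NRF2 targets (34.4%) and in 9 of the 22 called ones (40.9%). A match describes the letters of the window and no binding was measured. The stretches below carry the matches in capitals, on either strand, for 5 called members and for Ugdh, which also held matches although it differed in the other direction. They lie at chr3:122245393-122245461 (Gclm), chr1:21240434-21240502 (Gsta3), chr10:82859084-82859152 (Txnrd1) and chr6:138140441-138140509 (Mgst1) on the plus strand, and at chr14:118706220-118706274 (Abcc4) and chr5:65435898-65436004 (Ugdh) on the minus strand, all upstream of the start site.

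Gclm: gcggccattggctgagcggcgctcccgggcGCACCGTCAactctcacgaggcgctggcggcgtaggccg

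Gsta3: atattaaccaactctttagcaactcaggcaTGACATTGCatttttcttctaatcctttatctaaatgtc

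Txnrd1: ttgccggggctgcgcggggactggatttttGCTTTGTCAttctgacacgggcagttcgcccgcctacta

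Mgst1: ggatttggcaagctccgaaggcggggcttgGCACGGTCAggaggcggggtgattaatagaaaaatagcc

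Abcc4: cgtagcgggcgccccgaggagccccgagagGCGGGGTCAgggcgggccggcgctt

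Ugdh: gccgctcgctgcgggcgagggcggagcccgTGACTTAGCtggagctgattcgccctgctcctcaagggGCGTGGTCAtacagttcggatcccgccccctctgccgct

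Gclm, Gsta3, Txnrd1, Mgst1 and Abcc4 hold 1 match each in these stretches and Ugdh holds 2. Mgst1, a membrane-bound glutathione transferase, read 653, 665.8 and 689 with Ube2m shRNA and 119, 156 and 96.6 with Ube2f shRNA (log2 difference 2.31, SE 0.191, adjusted p = 7.81e-06).

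Of 6 tested aryl hydrocarbon receptor genes, 4 were higher with Ube2m shRNA (66.7%, against 6.37%), of which Nqo1 and Aldh3a1 are also NRF2 targets. Cyp1b1, a cytochrome P450, read 1922, 2050 and 2712 with Ube2m shRNA, 304.2, 184.7 and 308.7 with Ube2f shRNA and 826.7, 652.2 and 477.8 with control shRNA. Controls lay between the knockdowns (log2 difference between the knockdowns 3.01, SE 0.224, adjusted p = 4.04e-06; Ube2f minus control -1.25, adjusted p = 0.00749). With the mean of all its probe sets the difference between the knockdowns was 1.92 (adjusted p = 0.000102). The receptor gene Ahr read 163.6, 181.9 and 274 against 22.2, 39.4 and 51.3 (log2 difference 2.06). For Ahr and Aldh3a1, 2 of the 4, the mean with Ube2f shRNA lay below the level needed for testing, so these genes were tested because of their high arrays. The difference of Ahr was 1.40 with a constant of 64 and 1.32 with the mean of all its probe sets.

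**Figure D2:**
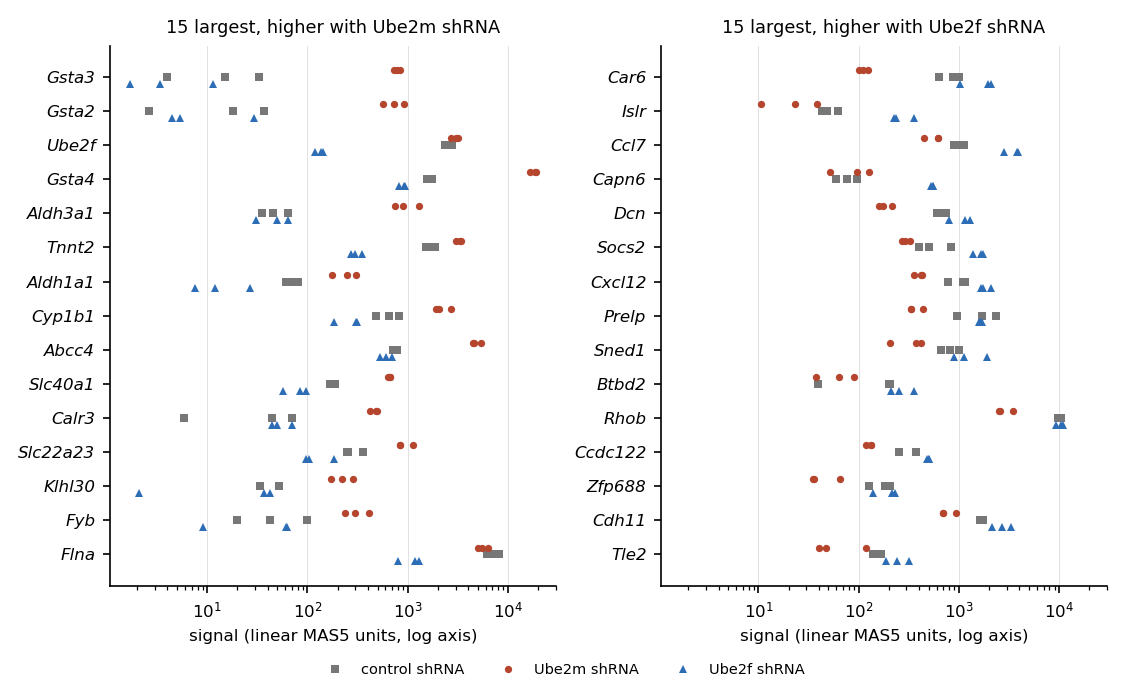
Signal (x axis, log scale, linear MAS5 units) of the 15 genes with the largest difference in each direction, with 1 point per array for control (grey squares), Ube2m (red circles) and Ube2f shRNA (blue triangles). Control arrays sit with the Ube2f shRNA arrays for Gsta3 and Gsta2, with the Ube2m shRNA arrays for Flna and Ube2f, and with the Ube2f shRNA arrays for Rhob and Prelp.

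Cholesterol biosynthesis genes also separated the knockdowns, by both sides. Of 22 tested members 13 were higher with Ube2m shRNA (59.1%, against 6.37% of all genes) and none was higher with Ube2f shRNA, with a median log2 difference of 0.73. The median was 0.72, 0.74 and 0.78 in the 3 replicate pairs, 0.28 for Ube2m shRNA against control and -0.36 for Ube2f shRNA against control. In every other setting tried, 10 to 16 members were higher with Ube2m shRNA.

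Fdft1, squalene synthase, read 4934, 4960 and 4356 with Ube2m shRNA, 1973, 2167 and 1804 with Ube2f shRNA and 3124, 3194 and 3269 with control shRNA. The 3 groups were in separate ranges with control in the middle (log2 difference 1.26, SE 0.103, adjusted p = 7.63e-06; Ube2m minus control 0.57, adjusted p = 0.00536; Ube2f minus control -0.69, adjusted p = 0.00225). With the mean of all its probe sets the difference between the knockdowns was 0.77 (adjusted p = 0.00526). Cyp51, lanosterol demethylase, had the same order, at 8794, 9020 and 9370, then 6466, 6302 and 7666 in controls, then 3749, 3934 and 4820 (log2 difference 1.13, SE 0.117, adjusted p = 5.19e-05). Mvd, mevalonate decarboxylase, read 725.1, 776.5 and 904.6 with Ube2m shRNA, overlapping controls at 769.2, 611 and 738.5, and 331.3, 342.1 and 351.7 with Ube2f shRNA (log2 difference 1.19, SE 0.133, adjusted p = 9.09e-05). Fdps and Msmo1 were called higher by 1.22 and 1.19, and both calls were lost with the mean of all probe sets of a gene (0.49 and 0.88, adjusted p = 0.161 and 0.214). Hmgcs1, which makes the precursor of mevalonate, did not pass (log2 difference 0.17, adjusted p = 0.604), nor did Srebf2, the gene of the factor that drives the pathway (0.49, adjusted p = 0.149).

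Fatty acid synthesis genes were higher with Ube2m shRNA for 7 of 16 members (43.8%, against 6.37%) and higher with Ube2f shRNA for 1, Gpam (-0.38), with a median of 0.40. Against control the list's median was -0.08 with Ube2m shRNA and -0.41 with Ube2f shRNA. Scd2, a stearoyl-CoA desaturase, read 21747, 21889 and 20472 with Ube2m shRNA, 9385, 9988 and 12198 with Ube2f shRNA and 13998, 12534 and 16256 with control shRNA (log2 difference 1.03, SE 0.123, adjusted p = 0.000165). Fads2, a fatty acid desaturase, read 1571, 1499 and 1737 against 742.9, 845.6 and 874.9 (log2 difference 0.95, SE 0.132, adjusted p = 0.000468). The 7 fell to 4 when Ube2m replicate 1, 2 or 3 or Ube2f replicate 1 or 2 was left out. The letters TCACNCCAC, a sterol regulatory element of the LDL receptor type, were in 118 of 8656 tested genes with a promoter (1.36%), in 1 of 18 tested cholesterol genes and in 0 of 10 called ones, on either strand.

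**Figure D3:**
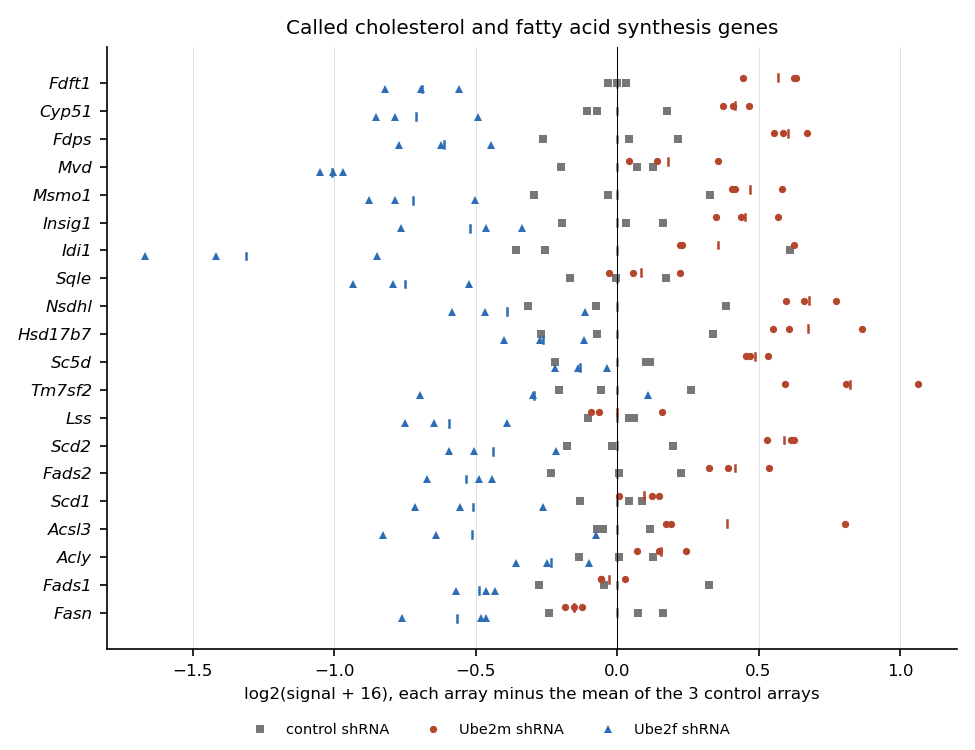
Called cholesterol and fatty acid synthesis genes higher with Ube2m shRNA, as log2(signal + 16) of each array minus the mean of the 3 control arrays (x axis), with points for arrays and short bars for group means. The Ube2f shRNA points of Fdft1, Cyp51, Mvd and Fdps lie left of 0 and the Ube2m shRNA points right of it.

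Genes of the extracellular matrix were mostly called in the other direction. Among 34 elastic-fibre, proteoglycan and other matrix genes, 15 were higher with Ube2f shRNA (44.1%, against 9.38% of all genes). In the other direction 5 were higher with Ube2m shRNA (14.7%, against 6.37% of all genes), so both shares were above those of all genes. The list's median was -0.34. Against control the median was -0.40 with Ube2m shRNA and 0.02 with Ube2f shRNA. In every other setting tried, 11 to 16 members were higher with Ube2f shRNA.

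Decorin (Dcn), a small leucine-rich proteoglycan that binds collagen, read 176.8, 159.2 and 217.5 with Ube2m shRNA and 1154, 802.1 and 1293 with Ube2f shRNA, with controls at 625.4, 746.4 and 601.7. The 3 groups did not overlap, and the lowest values were those with Ube2m shRNA (log2 difference -2.44, SE 0.182, adjusted p = 4.04e-06). Prelp, of the same family, read 330.1, 333.4 and 442.8 against 1584, 1648 and 1707, with controls at 2359, 1682 and 950.5 (log2 difference -2.12, SE 0.247, adjusted p = 0.000128). Tgfbi, a TGF-beta-induced adhesion protein, was high with Ube2f shRNA in place of low with Ube2m shRNA: it read 724, 737 and 997 with Ube2m shRNA, 2265, 2153 and 2744 with Ube2f shRNA and 587.5, 608.8 and 731.8 with control shRNA (log2 difference -1.53, SE 0.15, adjusted p = 3.39e-05). Islr, a leucine-rich repeat protein of mesenchymal cells, read 10.5, 23.3 and 38.4 against 236, 226.9 and 355 (log2 difference -2.88). For Islr and Crispld2, 2 of the 15, the mean with Ube2m shRNA lay below the level needed for testing, and the difference of Islr was -1.93 with a constant of 64. Versican (Vcan) was called at -1.12, but with the mean of all its probe sets the difference was -0.16 (adjusted p = 0.724). Mgp, an inhibitor of calcification, ran against the list, at 419.4, 394.3 and 494.2 with Ube2m shRNA and 180.8, 125.1 and 138.4 with Ube2f shRNA (log2 difference 1.47, SE 0.208, adjusted p = 0.000529).

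Collagens and their processing enzymes differed less. Of 31 tested, 6 were higher with Ube2f shRNA (19.4%, against 9.38%) and 2 with Ube2m shRNA (6.45%, against 6.37%), with a median of -0.15. Col5a1 had a log2 difference of -0.69 (SE 0.0913, adjusted p = 0.000356), which was lost with the mean of its probe sets (-0.38, adjusted p = 0.0986), and Col6a2 one of -0.49 (SE 0.089, adjusted p = 0.00283), which was lost with arrays centred on their medians. Metalloproteinases, inhibitors and integrins gave 8 of 29 higher with Ube2f shRNA (27.6%, against 9.38%) and 3 higher with Ube2m shRNA (10.3%, against 6.37%), with a median of 0.05. Adamts1, a versican-cleaving protease, read 1144, 1085 and 1091 with Ube2m shRNA and 2212, 2234 and 2320 with Ube2f shRNA (log2 difference -1.02, SE 0.141, adjusted p = 0.000467). Mmp14, a membrane metalloproteinase, read 1696, 1978 and 1976 against 3375, 3082 and 3933 (log2 difference -0.87, SE 0.133, adjusted p = 0.000875). Fibroblast markers were higher with Ube2f shRNA for 6 of 13 (46.2%, against 9.38%), among them the PDGF receptor gene Pdgfra, at 1198, 1096 and 1401 against 2147, 2182 and 2942 (log2 difference -0.96, SE 0.137, adjusted p = 0.000578). Dcn, another of the 6, is also counted in the matrix list above. The summed signal of the 14 fibroblast markers with a probe set was 138058 to 154405 with Ube2m shRNA and 155996 to 177930 with Ube2f shRNA. With control shRNA it was 142673 to 174528, overlapping both, and its part in the matrix result was not tested.

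A few chemokine genes were called. Of 26 chemokine, cytokine and NF-kappaB genes 5 were higher with Ube2f shRNA (19.2%, against 9.38%) and 1, Cxcl5 (0.61), was higher with Ube2m shRNA, while the list's median was 0.13. Ccl7, a monocyte-attracting chemokine, read 618, 623.1 and 448.8 with Ube2m shRNA, 3818, 3879 and 2827 with Ube2f shRNA and 939.2, 1126 and 900.8 with control shRNA. It was above control with Ube2f shRNA and below control with Ube2m shRNA (log2 difference between the knockdowns -2.61, SE 0.162, adjusted p = 1.56e-06; Ube2f minus control 1.80, adjusted p = 6.82e-05; Ube2m minus control -0.80, adjusted p = 0.00941). Ccl2, its neighbour in function, read 569, 729.7 and 573.8 against 1369, 1580 and 1303 (log2 difference -1.17, SE 0.158, adjusted p = 0.000402). Cxcl12, the ligand of CXCR4, read 358.6, 416.6 and 428.3 against 1725, 1672 and 2092 (log2 difference -2.14, SE 0.157, adjusted p = 3.62e-06), and the difference was -1.12 (adjusted p = 0.00525) with the mean of all its probe sets. The summed signal of macrophage markers overlapped between the groups, at 1165 to 1312 with Ube2m shRNA and 1111 to 1275 with Ube2f shRNA, with 4 of 12 reaching the level for testing and 1 called (Cd14, 0.52), and Ptprc, Itgam and C1qa stayed at 36.3 or less on all 6 arrays.

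Of 11 striated muscle genes 4 were higher with Ube2m shRNA (36.4%, against 6.37%) and none was higher with Ube2f shRNA, with a median of 0.04. Tnnt2, cardiac troponin T, read 3440, 3311 and 3028 with Ube2m shRNA, 295.2, 274.3 and 347.6 with Ube2f shRNA and 1723, 1534 and 1870 with control shRNA. It was low with Ube2f shRNA and high with Ube2m shRNA, with control between (log2 difference 3.35, SE 0.122, adjusted p = 5.02e-09; Ube2f minus control -2.42, adjusted p = 4.03e-07; Ube2m minus control 0.93, adjusted p = 0.000705). Mustn1, a musculoskeletal nuclear protein, read 1512, 1528 and 1106 with Ube2m shRNA, 473.2, 366.1 and 352.5 with Ube2f shRNA and 1448, 1628 and 1444 in controls (log2 difference 1.75, SE 0.152, adjusted p = 1.23e-05). The other called members were Acta1 (0.97), a skeletal actin, and Cryab (0.57), a small heat-shock protein. For both it was Ube2m shRNA that differed from control by the test (0.68 and 0.63, adjusted p = 0.0278 and 0.0186), while Ube2f shRNA did not pass (-0.29 and 0.06, adjusted p = 0.387 and 0.864). The call of Cryab was lost without Ube2m replicate 1, Ube2m replicate 2 or Ube2f replicate 1, and with arrays centred on their medians. The probe sets of Tnnt2, Acta1 and Cryab may share probes between transcripts, and these genes had no value without such probe sets.

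Of 50 actin cytoskeleton and SRF target genes, 8 were higher with Ube2m shRNA (16%, against 6.37%) and 4 were higher with Ube2f shRNA (8%, against 9.38%), with a median of 0.04. Filamin A (Flna), an actin cross-linker, read 5520, 5082 and 6278 with Ube2m shRNA, 799.9, 1195 and 1299 with Ube2f shRNA and 8088, 6164 and 6845 with control shRNA. The arrays with Ube2f shRNA were low and the other 6 high (log2 difference 2.36, SE 0.168, adjusted p = 3.21e-06; Ube2f minus control -2.68, adjusted p = 2.86e-06; Ube2m minus control -0.32, adjusted p = 0.271). Rhob, a small GTPase, showed the mirror pattern, at 2514, 2577 and 3482 with Ube2m shRNA, 9241, 10453 and 11013 with Ube2f shRNA and 10341, 9712 and 10178 in controls (log2 difference -1.85, SE 0.128, adjusted p = 2.54e-06). Capn6, a microtubule-stabilizing calpain relative, read 51.7, 126.8 and 97.1 with Ube2m shRNA and 547, 530.2 and 551.1 with Ube2f shRNA, with controls at 95.9, 75.7 and 59.5 (log2 difference -2.44, SE 0.26, adjusted p = 6.16e-05). Car6, a secreted carbonic anhydrase of no list, had the widest difference in that direction, at 123.3, 111.5 and 100.8 against 1965, 2070 and 1026, with controls at 1014, 865.4 and 634.9 (log2 difference -3.67, SE 0.242, adjusted p = 2.07e-06).

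**Figure D4:**
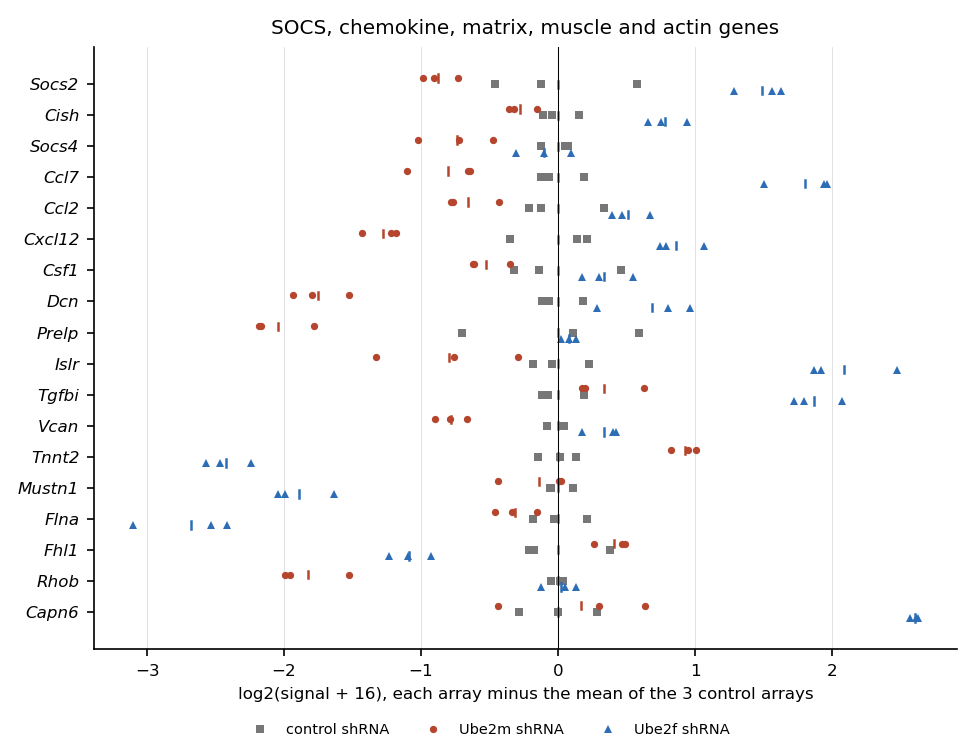
SOCS, chemokine, matrix, muscle and actin genes, as log2(signal + 16) of each array minus the mean of the 3 control arrays (x axis), with points for arrays and short bars for group means. Tnnt2, Mustn1, Flna and Fhl1 have their Ube2f shRNA points left of control, and Rhob, Dcn and Prelp their Ube2m shRNA points left of control.

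Signalling and transcription factor genes were called in both directions. Of 29 TGF-beta and BMP genes, 5 were higher with Ube2m shRNA (17.2%, against 6.37%) and 7 were higher with Ube2f shRNA (24.1%, against 9.38%), with a median of 0.02. Id1, a BMP-induced inhibitor of helix-loop-helix factors, read 2294, 2131 and 2201 with Ube2m shRNA and 4288, 4555 and 4102 with Ube2f shRNA (log2 difference -0.96, SE 0.109, adjusted p = 9.85e-05). Smad6, an inhibitor of BMP signalling, had a log2 difference of -1.31 (SE 0.209, adjusted p = 0.00117), and Skil, a SMAD corepressor, one of 0.82 (SE 0.134, adjusted p = 0.00132). Immediate early genes gave 7 of 25 higher with Ube2f shRNA (28%, against 9.38%) and 4 with Ube2m shRNA (16%, against 6.37%), with a median of -0.43. In the 3 replicate pairs the median was smaller, at -0.28, -0.19 and -0.27. Klf2, a zinc-finger factor, read 583.2, 663.2 and 832.2 with Ube2m shRNA and 1796, 1964 and 2444 with Ube2f shRNA, and its relative Klf4 read 4256, 4145 and 5360 against 8968, 9110 and 9814. Controls of both were at the level of the Ube2f shRNA arrays, at 2499, 2086 and 2308 for Klf2 and 9088, 8496 and 8893 for Klf4.

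Receptor tyrosine kinase and IGF genes gave 6 of 35 in each direction (17.1%). Met, the receptor of hepatocyte growth factor, read 2606, 2680 and 2870 with Ube2m shRNA, 612.9, 517.6 and 692.2 with Ube2f shRNA and 1658, 1254 and 1506 with control shRNA (log2 difference 2.14, SE 0.134, adjusted p = 1.56e-06). Among 25 Wnt and Hedgehog genes, 2 were higher with Ube2m shRNA (8%, against 6.37%) and 5 were higher with Ube2f shRNA (20%, against 9.38%). For 1 of the 2, Lef1 (1.26), the mean with Ube2f shRNA lay below the level needed for testing. Tcf7l1, a repressor of Wnt targets, was lower with Ube2m shRNA by a log2 difference of -1.28 (SE 0.115, adjusted p = 1.7e-05), and the Hedgehog receptor gene Ptch1 by -0.63, which became 0.02 with the mean of its probe sets. HIF target and glycolysis genes gave 6 of 26 higher with Ube2f shRNA (23.1%, against 9.38%), such as Pdk1, which limits pyruvate oxidation, at 298.3, 333.3 and 300.4 against 960.9, 767.8 and 885.7 (log2 difference -1.44, SE 0.139, adjusted p = 2.95e-05). With the mean of all probe sets of Pdk1 the difference was -0.79 (adjusted p = 0.0204). The 1 in the other direction was Slc2a1, the glucose transporter GLUT1 (0.85, SE 0.124, adjusted p = 0.000657).

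Cell cycle genes differed by small amounts. Of 55 G2/M and mitosis genes, 10 were higher with Ube2m shRNA (18.2%, against 6.37%, or 15.8% in either direction) and none was higher with Ube2f shRNA, with a median of 0.17. Plk1, the mitotic kinase, read 2493, 2573 and 2438 with Ube2m shRNA and 1831, 1884 and 1670 with Ube2f shRNA (log2 difference 0.48, SE 0.106, adjusted p = 0.00893). The count of 10 fell to 3 without Ube2m replicate 1, 1 without Ube2m replicate 2, 3 without Ube2f replicate 1 and 0 with arrays centred on their medians. Of 48 G1/S and replication genes 3 were called (6.25%, against 15.8%), Ccne1 (0.65) and E2f2 (0.83) higher and E2f1 (-0.59) lower with Ube2m shRNA, and each lost its call in 2 or more fits without 1 array. E2f1 was 0.06 with the mean of its probe sets. Cdt1, a licensing factor degraded through cullin ligases, did not pass (log2 difference 0.26, adjusted p = 0.29). Cyclins, CDK inhibitors and p53 targets gave 5 of 35 higher with Ube2m shRNA (14.3%, against 6.37%) and 6 with Ube2f shRNA (17.1%, against 9.38%). The pocket protein gene Rbl1 was lower with Ube2m shRNA (-0.83, SE 0.106, adjusted p = 0.000272; -0.27, adjusted p = 0.42, with the mean of its probe sets), as was cyclin D1 (Ccnd1, -0.61, SE 0.13, adjusted p = 0.00719). The p53 targets Tnfrsf10b (0.81, SE 0.182, adjusted p = 0.00952) and Pmaip1 were called higher with Ube2m shRNA. Cdkn1a, the p53 target p21, had a log2 difference of -0.19 (adjusted p = 0.273).

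**Figure D5:**
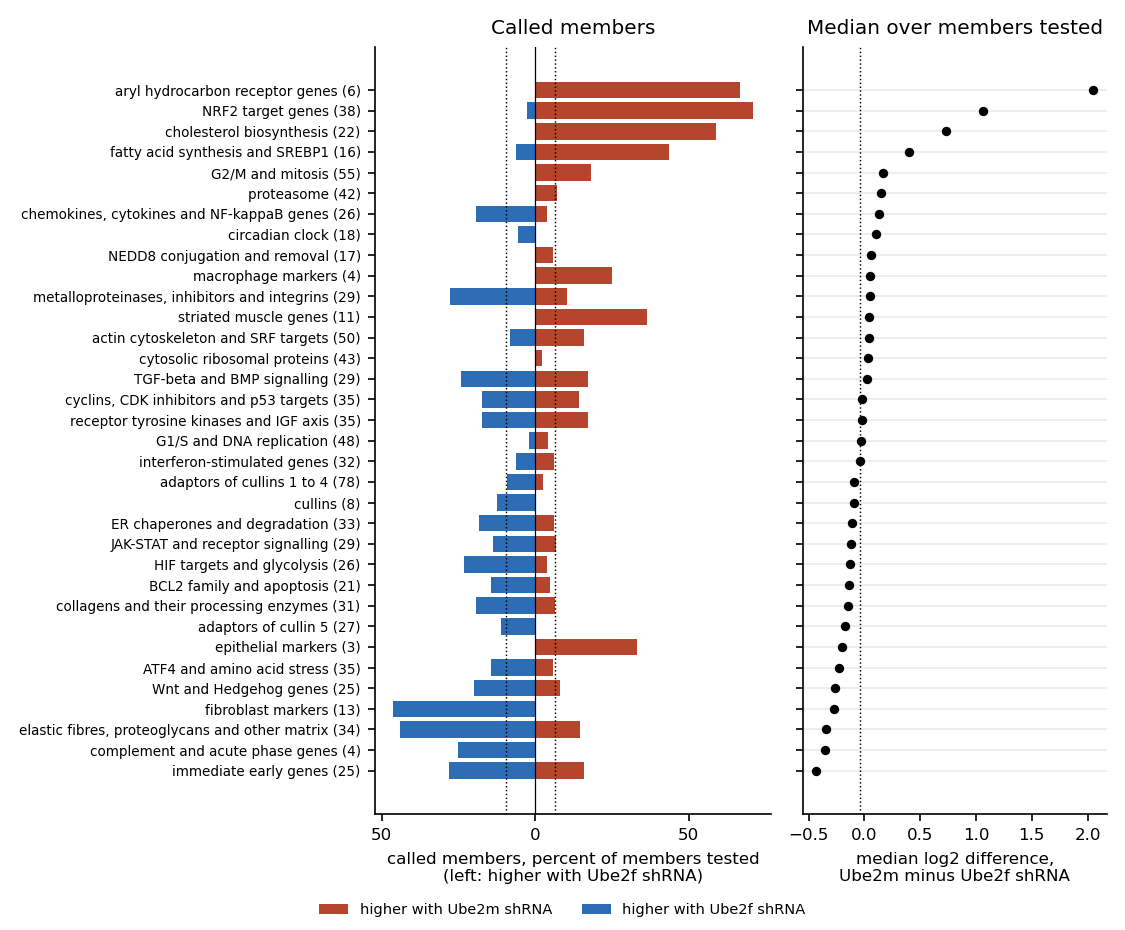
Gene lists with at least 1 called member, with the number of tested members in brackets. Bars give the percent of tested members called (red, higher with Ube2m shRNA; blue, drawn to the left, higher with Ube2f shRNA), points give the median log2 difference, and dotted lines mark the same over all genes tested (6.37% and 9.38%, median -0.04).

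The remaining lists had fewer or smaller calls. Of 35 ATF4 and amino acid stress genes, 2 were higher with Ube2m shRNA (5.71%, against 6.37%) and 5 were higher with Ube2f shRNA (14.3%, against 9.38%), among them Ddit3, the stress factor CHOP (-0.91, SE 0.23, adjusted p = 0.0173), whose call was lost without Ube2m replicate 3, Ube2f replicate 1 or Ube2f replicate 2 and with arrays centred on their medians. Of 33 ER chaperone and degradation genes, 2 were higher with Ube2m shRNA (6.06%, against 6.37%) and 6 were higher with Ube2f shRNA (18.2%, against 9.38%). Erlin1, part of an ER degradation complex, read 2158, 2153 and 2102 with Ube2m shRNA against 801.1, 725.6 and 895.5 with Ube2f shRNA (log2 difference 1.39, SE 0.11, adjusted p = 5.57e-06), but 0.46 (adjusted p = 0.143) with the mean of its probe sets. Of 42 proteasome genes, 3 were higher with Ube2m shRNA (7.14%, against 6.37%), namely Psmd11, Pomp and Nfe2l1. All 3 calls were lost with arrays centred on their medians, and those of Pomp and Nfe2l1 also in 3 and 4 of the fits without 1 array. Of 43 cytosolic ribosomal protein genes, 1 was called (Rps25), and its call was lost with arrays centred on their medians. Of 18 circadian clock genes 1 was called (Cry1, -0.48), whose call was lost in 4 of the fits without 1 array. Of 4 complement and acute phase genes 1 was called (C1ra, -1.69), with its Ube2m shRNA mean below the level needed for testing. No endothelial marker of 9 reached the level for testing, and of 7 adipocyte markers 1 did, Lpl, which was not called (0.14, adjusted p = 0.508). Interferon-stimulated genes gave 2 of 32 in each direction (6.25%). BCL2 family and apoptosis genes gave 1 of 21 higher with Ube2m shRNA (4.76%, against 6.37%) and 3 with Ube2f shRNA (14.3%, against 9.38%). The 1 was Bcl2l11 (0.98, adjusted p = 0.0293), whose call was lost in 4 of the fits without 1 array. Bnip3, a mitophagy receptor also counted in the HIF list, had the smallest p (-0.93, SE 0.108, adjusted p = 0.000128).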

How the data were processed

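Intensity values, the linear signal of 45101 probe sets on 9 Affymetrix arrays, were used as deposited. They are attributed to MAS5 per the submitters' processing notes, with version and settings not given in the sources used here. Per the labels, cRNA was made from 6 ug of Trizol-extracted total RNA. Signals were analysed as log2(signal + 16), which understates the change of dim genes. Probe sets that are controls (64), carry several genes (932) or carry no gene name (9160) were left out, and the one with the highest mean was kept for each of 18193 genes. Of these, 10613 were tested, those with a mean at or above that of the middle non-control probe set (log2 6.12, a signal of 53.8).

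The 3 group means were estimated together from the 9 arrays in limma 3.58.1 (R 4.3.3; eBayes with an intensity trend). Two-sided p-values were adjusted with the Benjamini-Hochberg method over the 10613 genes, at a threshold of 0.05. Such genes are written as called, SE is that of the log2 difference, and a difference is Ube2m minus Ube2f shRNA unless stated. Since 3 arrays against 3 cannot give a permutation p under 0.1, no permutation test was run. The number of arrays limits the precision. The fit was tested on simulated data.

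The comparison and the 37 gene lists were chosen with earlier results of these data known. Named were Ube2f, called NEDD8 pathway genes and cullins, the 15 largest differences per direction among called genes with no overlap between arrays, and up to 5 called members per list by smallest p. The text prints a choice of these. Other genes, such as Ugdh, Mgst1, Mgp, Hmox1, Txnrd1, Spop, Gpam, Cxcl5, Pim1 and Pmaip1, the remaining called members of small lists and the uncalled ones, were added after their values were seen. Same-numbered arrays of both knockdowns deviated together from their group means (correlations 0.20, 0.21 and 0.56). This met the rule set for pairing (all above 0.1). Crossed arrays of replicates 1 and 2 correlated about as much, at 0.28 (Ube2m 1 with Ube2f 2) and 0.19 (Ube2m 2 with Ube2f 1). The values therefore set replicate 3 apart and do not show that replicates 1 and 2 were paired. The replicate numbers, from the titles, were used as pairs only in the replicate-pair medians and the replicate block. The main fit did not use them. The alternatives changed the constant, filter, probe set choice, scaling, arrays and model terms.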

Additional observations from a re-analysis of the deposited data

Results flagged for a closer look

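Signals also differed in probe sets outside the gene table. The same limma model was fitted to each of 2 such sets separately, with p-values adjusted within the set. The percents are therefore not on the same footing as those of the gene table. Of 2269 probe sets without a gene name that reached the level for testing, 55 (2.42%) were called. Of these, 40 were higher with Ube2m shRNA and 15 higher with Ube2f shRNA, with log2 differences from -3.39 to 3.30. Of 566 probe sets assigned to several genes, 62 (11%) were called, 36 higher with Ube2m shRNA and 26 higher with Ube2f shRNA, from -1.80 to 4.68. They were noted because they lie outside the probe sets compared above.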

How the results depend on the processing

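The count of 1672 called genes became 868 (356 higher with Ube2m shRNA, 512 with Ube2f shRNA) with arrays centred on their medians, 1109 (632 higher with Ube2f shRNA) with the mean of all probe sets of a gene, and 2714 (1072 and 1642) with replicate 3 as a batch term. With the replicate block it was 2493, with 1501 higher with Ube2f shRNA, and all 1672 genes called without the block were among them. Of the 144 named genes 0 lost or gained a call under the block. Leaving out 1 array gave 1017 to 1813 called genes, 420 to 735 higher with Ube2m shRNA, 570 to 1078 higher with Ube2f shRNA, and 832 to 1078 at 1.5-fold or more. The 1036 genes called at 1.5-fold or more became 643 with a filter at the 75th percentile, where 6863 genes were tested. The causes of the other shifts were not tested.

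None of the main calls changed sign in any setting except with the mean of all probe sets (19 genes) and without probe sets that may share probes (19 genes). Among named genes the sign turned for Ube2f (-0.70) and E2f1 (0.08) without probe sets that may share probes, and for E2f1 (0.06) and Ptch1 (0.02) with the mean of all probe sets. Krt14, Fdft1, Mvd, Prelp and Tgfbi were also read by probe sets that may share probes, and their calls were kept without these. Btrc, Id2, Kif11 and Pdgfrb lost their calls in that setting. Of 141 called named genes, 80 kept the call in every setting in which they were tested, and some, such as Gsta3 and Tnnt2, were not tested in all settings. Low signals, with no detection calls used here, limit what can be said of genes such as Gsta3 in the low group, whose log2 difference was 5.24 with the constant of 16 and 3.61 with 64.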
